A study of Mus musculus with 6 samples.

Results

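Frizzled proteins are the cell-surface receptors of secreted WNT ligands. The 10 Frizzled genes of the mouse, Fzd1 to Fzd10, were examined here for CHD7 and H3K27ac in the cardiac neural crest of mouse embryos at E10.5 (embryonic day). All 10 were found among the 21776 protein-coding genes of the mm10 RefSeq gene table. A peak belonged to a Frizzled gene when it lay within 1 kb of either annotated end (called a boundary), lay elsewhere in the gene body, or had that gene as the nearest protein-coding gene within 100 kb. CHD7 is a chromatin remodelling ATPase, and H3K27ac, acetylation of lysine 27 on histone H3, marks promoters and enhancers in use. The libraries were 2 of CHD7 chromatin immunoprecipitation, 2 of H3K27ac immunoprecipitation and 2 of input chromatin, numbered 1 and 2 in each group. Every library came from the same kind of cell. Wnt1-Cre2 males had been mated with mTmG females, and cells of pharyngeal arches 3 to 6 that carried green fluorescent protein were sorted. There was thus no mutant arm or other condition to compare with, and the driver labels the whole neural crest lineage. The peak lists held 31873 and 26927 CHD7 peaks, 24283 and 22686 H3K27ac peaks, and 451 and 512 input peaks on the placed chromosomes, and the read depth behind them is unknown. Of these, 25 peaks in each CHD7 library, 30 and 28 peaks in the H3K27ac libraries and 0 in either input library belonged to Frizzled genes. Regions called in both libraries of a group numbered 18 for CHD7, of 19947 in all, and 21 for H3K27ac, of 17756. As a check of the labelled cell type, H3K27ac lay at a boundary of 3 of 12 neural crest markers (Sox9, Twist1 and Msx2), but not of Sox10, Foxd3 or Tfap2a. It lay at 0 of 6 endothelial, 0 of 6 cardiomyocyte, 2 of 6 blood cell (Klf1 and Spi1), 2 of 6 epithelial (Krt8 and Grhl2) and 2 of 6 neuron markers (Elavl4 and Tubb3). CHD7 lay at 3 of 12 neural crest, 2 of 6 endothelial and 0 of 6 cardiomyocyte markers, and at 2 of 6 in each other list. The shares over all protein-coding genes were 47.6% for H3K27ac and 44.2% for CHD7. Neural crest markers thus did not stand out above blood cell, epithelial or neuron markers, and the check does not establish the label. The part of other cell types in the peaks at Frizzled genes was not tested.

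Frizzled receptors are serpentine membrane proteins that bind WNT proteins through an extracellular cysteine-rich domain. With the coreceptors Lrp5 and Lrp6 they stabilise beta-catenin, and with other partners they act in planar cell polarity and calcium signalling. By sequence similarity they are commonly grouped as Fzd1, Fzd2 and Fzd7, as Fzd3 and Fzd6, as Fzd5 and Fzd8, and as Fzd4, Fzd9 and Fzd10. WNT signals take part in the induction, migration and differentiation of the neural crest. Most Frizzled genes are compact. Here 8 of them spanned between 2110 bp (Fzd9) and 7193 bp (Fzd5), while Fzd6 spanned 32044 bp and Fzd3 70023 bp, against a median of 17218 bp over all protein-coding genes.

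The 250 bases before the start site were listed by RefSeq (GRCm38.p6) for 6 of the 10 genes, Fzd1, Fzd4, Fzd5, Fzd7, Fzd9 and Fzd10. Printed below are those of the gene whose window lay inside the mapped regions (Fzd1) and of 3 genes whose window no region of either antibody entered although H3K27ac lay on 1 or both sides of it (Fzd5, Fzd7 and Fzd10). Each reads 5′ to 3′ on the strand of the gene and ends at the base before the start site. Capitals mark matches on either strand to GGGCGG (the GC box), CCAAT (the CCAAT box), TATAAA (the TATA box) and CTTTGA (the core of the site of TCF and LEF factors, which act with beta-catenin).
Fzd1, chr5:4758217-4758466, minus strand: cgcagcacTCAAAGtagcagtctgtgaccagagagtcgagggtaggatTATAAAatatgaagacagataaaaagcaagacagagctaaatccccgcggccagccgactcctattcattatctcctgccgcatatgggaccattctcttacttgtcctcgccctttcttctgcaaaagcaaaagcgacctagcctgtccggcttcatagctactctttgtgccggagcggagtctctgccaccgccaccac
Fzd5, chr1:64737751-64738000, minus strand: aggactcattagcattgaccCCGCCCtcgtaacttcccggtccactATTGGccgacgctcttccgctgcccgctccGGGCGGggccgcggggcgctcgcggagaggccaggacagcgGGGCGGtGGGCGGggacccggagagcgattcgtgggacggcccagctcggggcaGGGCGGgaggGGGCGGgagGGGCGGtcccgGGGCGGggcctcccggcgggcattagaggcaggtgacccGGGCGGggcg
Fzd7, chr1:59481897-59482146, plus strand: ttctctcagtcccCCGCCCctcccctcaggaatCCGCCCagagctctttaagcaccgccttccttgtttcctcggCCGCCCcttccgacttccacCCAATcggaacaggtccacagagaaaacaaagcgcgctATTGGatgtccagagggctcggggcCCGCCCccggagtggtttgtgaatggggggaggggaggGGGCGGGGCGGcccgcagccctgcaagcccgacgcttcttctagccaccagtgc
Fzd10, chr5:128600856-128601105, plus strand: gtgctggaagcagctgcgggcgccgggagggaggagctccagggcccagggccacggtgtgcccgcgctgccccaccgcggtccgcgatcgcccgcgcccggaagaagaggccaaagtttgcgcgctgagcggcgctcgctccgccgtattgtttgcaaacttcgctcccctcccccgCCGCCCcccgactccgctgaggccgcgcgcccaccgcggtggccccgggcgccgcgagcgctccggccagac
The Fzd1 window differed in composition from the other 5. It held 51.2% G and C and 12 CG dinucleotides, while the windows of Fzd4, Fzd5, Fzd7, Fzd9 and Fzd10 held between 65.2% and 76.4% G and C and between 17 and 42 CG dinucleotides. The median over the 32841 RefSeq windows of that length was 52.4% G and C. The ratio of observed to expected CG dinucleotides was 0.75 for Fzd1 and ranged from 0.65 (Fzd7) to 1.18 (Fzd9) in the others, against a median of 0.37 over all windows. GC boxes stood in 5 of the 6 windows, with 9 matches for Fzd5, 7 for Fzd4, 6 for Fzd7 and 1 each for Fzd9 and Fzd10, against 32.7% of all windows with at least 1. A pair of the Fzd7 matches shared a base, and so did a pair in Fzd4. CCAAT stood in the windows of Fzd4, Fzd5 and Fzd7, as in 33.9% of all windows. The Fzd1 window alone among the 6 held TATAAA and CTTTGA, which stood in 12.4% and 13.8% of all windows. Counted from the start site of Fzd1, TATAAA lay at -202 to -197 and CTTTGA, on the other strand, at -242 to -237.

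H3K27ac lay at a boundary of nearly the whole family. Regions called in both libraries stood at 9 of the 10 genes, all but Fzd9, against 47.6% of all protein-coding genes, and their fold enrichment ranged widely between members. When peaks had to reach a −log10 q of 10, H3K27ac was left at 4 of 10, against 28.3% of all genes, and with the 10000 peaks of lowest q at 5 of 10, against 31.4%. Fold enrichment is the authors' value at a peak's summit, computed by their peak caller in each library. No test was made of it, and all counts and folds are given as descriptions. An exact permutation test of 2 libraries against 2 could not give a p below 0.333. The labels do not say that paired libraries derive from different embryos or cell sorts, so their spread may be technical.

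Fzd6, a planar cell polarity receptor, had the highest H3K27ac fold of the family, 4.42 in library 1 and 5.74 in library 2 (mean 5.08 ± 0.94, SD, n = 2), over its lower-coordinate end (chr15:39005928-39006756). Fzd3, its closest relative and a receptor in axon guidance, had folds of 4.06 and 4.68 (4.37 ± 0.44) at its upper-coordinate end (chr14:65261235-65262434). For both of these genes the 2 libraries gave similar intervals, and the mark lay at 1 end only. Fzd1 had 2 regions, one inside the gene with folds of 4.38 and 5.30 (4.84 ± 0.65; chr5:4756891-4757995) and one across the start site with 3.27 and 2.88 (3.08 ± 0.27; chr5:4758182-4758963). Fzd4, a receptor that also binds the non-WNT ligand Norrin, had folds of 4.09 and 4.47 (4.28 ± 0.27; chr7:89404430-89405081) inside the gene and 3.71 and 3.00 (3.35 ± 0.50; chr7:89403372-89404148) before it. Both regions also lay within 1 kb of an end of Tmem135, which overlaps Fzd4, and cannot be assigned to either gene. The highest mean folds among the 13 boundary H3K27ac regions of the family thus belonged, in order, to Fzd6, Fzd1, Fzd3 and Fzd4, and neighbours in that order differed by less than the SD of at least 1 of them.

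The remaining members had H3K27ac at lower fold. Fzd2 had folds of 3.05 in both libraries (3.05 ± 0.0019; chr11:102603693-102604135) below its lower end and of 3.16 and 2.30 (2.73 ± 0.61; chr11:102604490-102605427) above it. Fzd7, the relative of Fzd1 and Fzd2, had 2.66 and 3.10 (2.88 ± 0.31; chr1:59480643-59481452) before its start site and 2.47 and 2.27 (2.37 ± 0.14; chr1:59482272-59482844) after it. The region after the start site had the lowest mean fold of the family's boundary regions, with only 0.535% of all boundary H3K27ac regions at or below it. Fzd10, a receptor expressed in the developing neural tube, had 3.05 and 3.20 (3.13 ± 0.11; chr5:128600285-128600654) at -821 to -452 bp from its start site, where the region overlapped the non-coding gene Fzd10os. Fzd8 had 2.86 and 3.32 (3.09 ± 0.32) in a region of 2080 bp across its lower end (chr18:9212287-9214366), the widest of the family. Its relative Fzd5 had 3.06 and 2.52 (2.79 ± 0.38; chr1:64737149-64737516), from 234 to 601 bp after its start site. Each Fzd5 library held a further peak before the start site, with folds of 3.35 and 2.67, but these did not overlap and formed no region. Fzd9, a gene of the interval deleted in Williams syndrome, had a peak in library 1 alone (fold 3.15) and none in library 2.

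**Figure D1:**
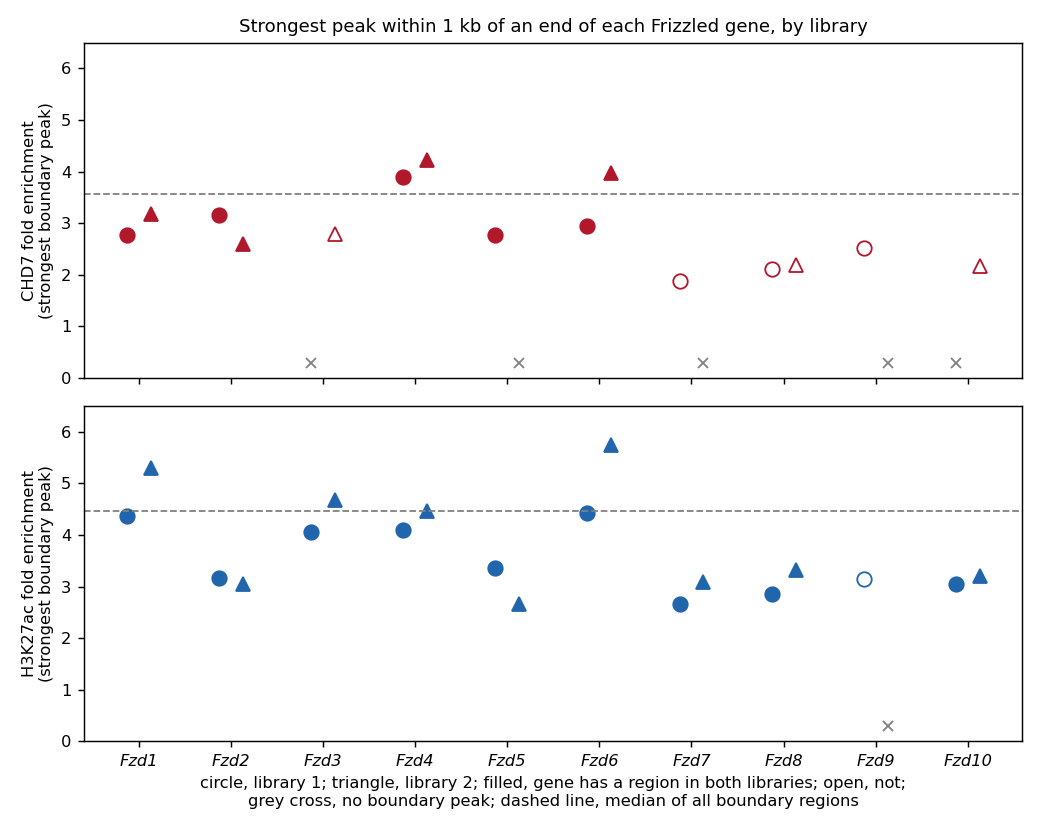
Fold enrichment of the strongest boundary peak of each Frizzled gene (vertical axes, from 0) in each CHD7 library (upper panel) and H3K27ac library (lower panel), with circles for library 1, triangles for library 2, filled symbols where the gene has a region in both libraries and crosses where a library has no boundary peak. Most symbols lie below the dashed median of all boundary regions, 3.58 for CHD7 and 4.46 for H3K27ac, and 5 genes have filled CHD7 symbols against 9 with filled H3K27ac symbols.

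At Fzd1, Fzd2, Fzd4 and Fzd7, 4 of 10 genes, H3K27ac formed 2 separate boundary regions, against 12.6% of all protein-coding genes with 2 or more. The start site lay between the regions at Fzd4 and Fzd7. The stretch between them was 281 bp at Fzd4, from -218 to 64 bp relative to the start site, and 819 bp at Fzd7, from -695 to 125 bp. At Fzd1 it was 186 bp and lay after the start site, from 34 to 221 bp. At Fzd2, whose strand the tables used here do not give, it was 354 bp and spanned the lower end. CHD7 formed such pairs at Fzd1, with 312 bp between the regions, and at Fzd4, with 292 bp, 2 of 10 genes against 2291 of all 21776. The printed Fzd1 window lay in CHD7 regions over 227 and in H3K27ac regions over 250 of its 250 bases. The window of Fzd4 was covered over 63 and 33 bases, and those of Fzd5, Fzd7, Fzd9 and Fzd10 over 0.

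**Figure D2:**
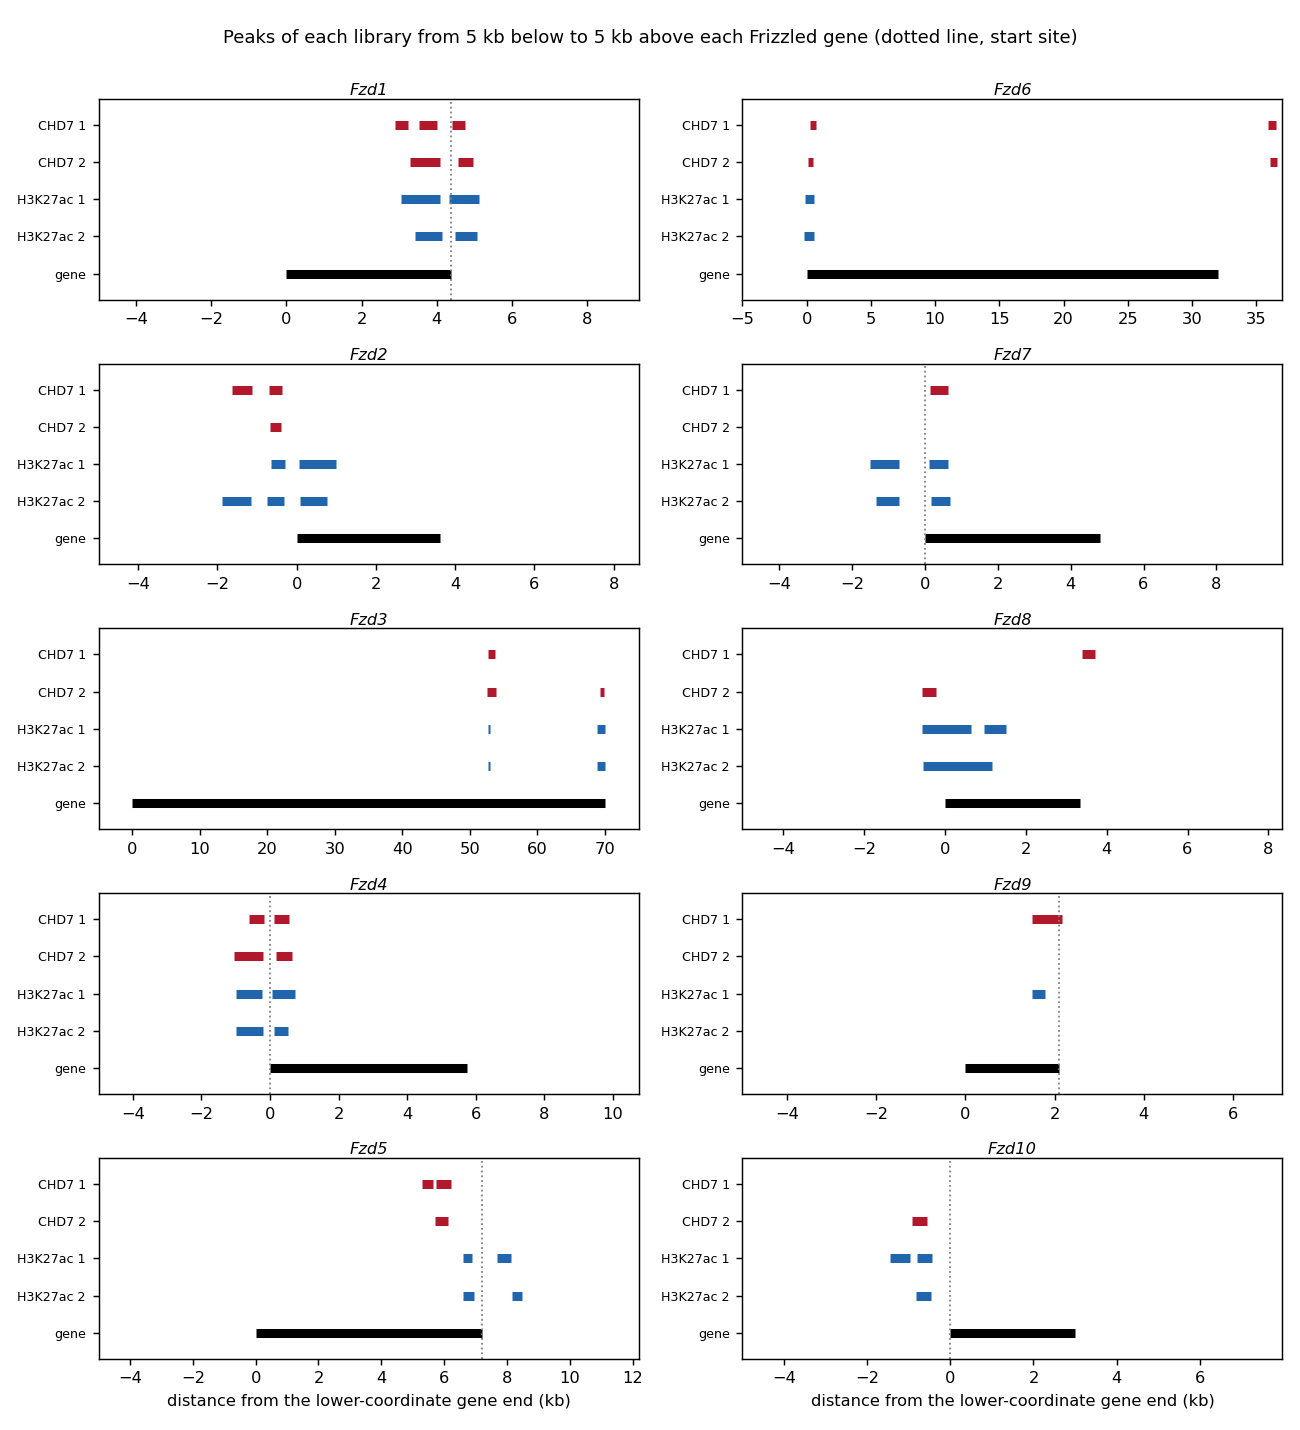
Peaks of the CHD7 (red) and H3K27ac (blue) libraries around the 10 Frizzled genes (black bars), as distance from the lower-coordinate gene end in kb, with a dotted line at the start site where it is listed. Pairs of peaks stand near the start at Fzd1, Fzd4 and Fzd7, the CHD7 peaks of Fzd8 lie at opposite ends of the gene, and at Fzd3 the CHD7 peaks of both libraries lie in the gene body.

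Regions called in both CHD7 libraries stood at a boundary of 5 Frizzled genes, Fzd1, Fzd2, Fzd4, Fzd5 and Fzd6. That share of 50% lies near the 44.2% of all protein-coding genes. At Fzd5 only a peak of library 1 lay within 1 kb of an end. Each of these 5 also had H3K27ac at a boundary, as did 8567 of all 9618 genes with CHD7. Both antibodies thus stood at 5 of 10 Frizzled genes, against 39.3% of all genes. At Fzd1, Fzd2, Fzd4 and Fzd6 the regions overlapped, 4 of 10 genes against 37.7% of all. H3K27ac without CHD7 stood at the other 4 marked genes, Fzd3, Fzd7, Fzd8 and Fzd10, against 8.29% of all genes. This set depended on the libraries, peak strength and boundary distance. It was Fzd3 and Fzd10 in library 1 alone (6.11% of all genes) and Fzd5 and Fzd7 in library 2 alone (6.36%). It held 0 genes with regions found in either library (4.12%). With a −log10 q of 10 it was Fzd1, Fzd2 and Fzd3 (19.7%). With the 10000 peaks of lowest q it was Fzd1, Fzd2, Fzd3 and Fzd6 (15.1%). Within 500 bp, Fzd5 joined the 4 genes (8.71%), and within 2.5 kb the set was unchanged (8.02%). CHD7 without H3K27ac stood at 0 of the 10, against 4.83% of all genes. When peaks had to reach a −log10 q of 10, CHD7 was left at Fzd4 alone, 1 of 10 genes against 10.6% of all. There it cannot be told apart from CHD7 at Tmem135, as described next.

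Fzd4 had the strongest CHD7 boundary region of the family. Its folds were 3.89 and 4.23 (4.06 ± 0.24, SD, n = 2) before the start site (chr7:89403308-89404178), and 3.41 and 2.40 (2.90 ± 0.71; chr7:89404471-89405015) after it. These regions also lay within 1 kb of an end of Tmem135, a gene on the other strand that overlaps Fzd4 by 338 bp. A listed start site of Tmem135 lay 144 bp before that of Fzd4, so the peaks cannot be assigned to either gene. Fzd6 had folds of 2.94 and 3.98 (3.46 ± 0.73; chr15:39006286-39006900). Its SD was the largest among the 7 CHD7 boundary regions, and both its CHD7 and its H3K27ac region overlapped the non-coding gene Gm26704.

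The other 3 genes had CHD7 folds close to 3. Fzd1 had 2.67 and 3.18 (2.93 ± 0.36; chr5:4757143-4757927) inside the gene and 2.78 and 2.65 (2.71 ± 0.094; chr5:4758240-4758810) before its start site. Fzd2 had 3.16 and 2.61 (2.88 ± 0.39; chr11:102603741-102604056). Fzd5 had 2.77 and 3.19 (2.98 ± 0.30; chr1:64736276-64736765), in a region that began 985 bp inside the gene and overlapped no H3K27ac region. This region lay just inside the limit of 1 kb, and in library 2 its peak began 1072 bp from the start site. Means of these regions differed by less than the SD of most of them, so no order among Fzd1, Fzd2 and Fzd5 can be read from them.

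The other 5 genes had a CHD7 boundary peak in a single library or at different places, always at low fold. Fzd3 had a peak of 2.79 in library 2 alone, inside its H3K27ac region. Fzd7 had 1.89 in library 1 alone, at a gene position shared with its H3K27ac region, and 0.264% of the peaks of that library had a fold as low. Fzd8 had 2.11 in library 1 and 2.18 in library 2, at opposite ends of the gene. Fzd9 had 2.51 in library 1 and Fzd10 2.17 in library 2. Counted in either library, all 10 genes thus had a CHD7 peak at a boundary, against 55.1% of all genes, and all 10 had an H3K27ac peak, against 53.3%. By library, CHD7 boundary peaks stood at 8 and 7 genes and H3K27ac peaks at 10 and 9, against 51.1% and 49.1% of all genes for CHD7 and 51.3% and 49.8% for H3K27ac. Input peaks lay at a boundary of 0 of the 10 genes, as for all but 0.156% of protein-coding genes.

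Boundary regions of Frizzled genes had lower fold enrichment than most boundary regions. This holds for fold alone, and their −log10 q was not ranked among boundary regions. With a −log10 q of 10 required, H3K27ac stood at 4 of 10 genes, against 28.3% of all, and CHD7 at 1 of 10, against 10.6%. The median of their mean folds was 2.93 over 7 CHD7 regions, against 3.58 over all 10197 CHD7 boundary regions, and 3.09 over 13 H3K27ac regions, against 4.46 over all 11214. Above the median of all stood 1 of the 7 CHD7 regions and 2 of the 13 H3K27ac regions. The CHD7 region was that of Fzd4 before its start site, which also lay within 1 kb of an end of Tmem135. The H3K27ac regions were those of Fzd6 and, inside the gene, Fzd1. The mean fold of that Fzd4 region stood at or above that of 72.3% of all boundary CHD7 regions, and the 6 others between 8.07% and 43.5%. Away from boundaries the gap was smaller, with a median of 3.16 over 11 CHD7 regions against 3.33 over 9750, and of 3.20 over 8 H3K27ac regions against 3.41 over 6542. The 9750 and 6542 were not limited to regions within 100 kb of a gene. Regions of 1 gene share its locus and are not independent, and no test was made of these medians.

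**Figure D3:**
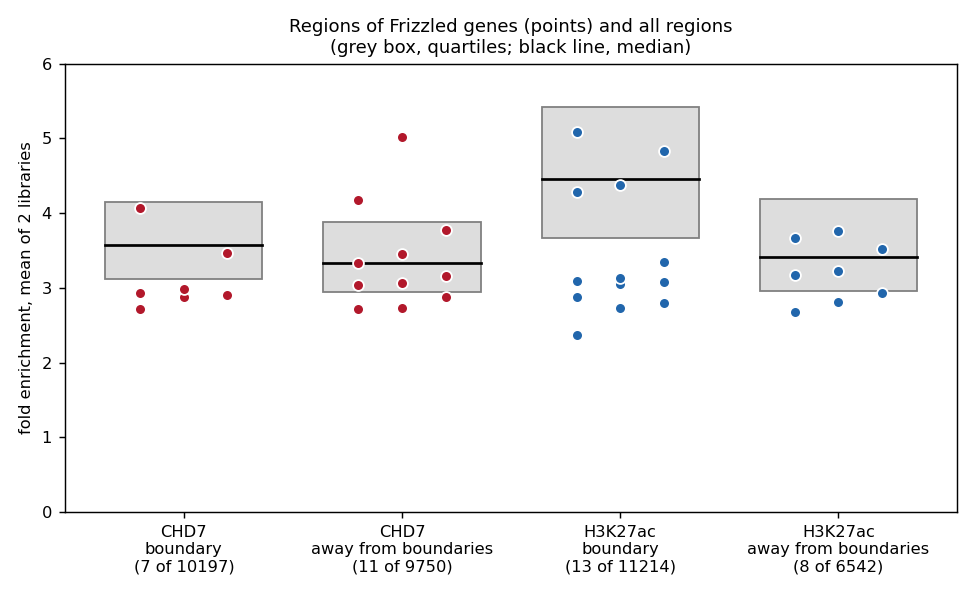
Mean fold enrichment of 2 libraries (vertical axis, from 0) for each region of a Frizzled gene (points), by antibody and place, beside the quartiles (grey boxes) and median (black lines) of all regions of that class. Of the boundary regions, 6 of 7 CHD7 points and 11 of 13 H3K27ac points lie below the black lines.

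Away from boundaries, 11 CHD7 regions belonged to 6 genes and 8 H3K27ac regions to 4. CHD7 regions of this kind were assigned to Fzd1, Fzd2, Fzd3, Fzd4, Fzd6 and Fzd7, 6 of 10 genes against 23.3% of all, and H3K27ac regions to Fzd2, Fzd3, Fzd7 and Fzd9, 4 of 10 against 18.6%. With the nearest gene sought among all genes, non-coding ones included, 3 CHD7 and 4 H3K27ac regions were left, and with a −log10 q of 10 required of every peak 2 and 0. The distance to the nearest other protein-coding gene ranged from 0 kb (Fzd4) and 2.81 kb (Fzd9) to 132 kb (Fzd10), and its part in these counts was not tested. Of the 11 CHD7 regions, 5 overlapped H3K27ac (45.5%), near the 39.5% of all CHD7 regions away from boundaries. Of the 8 H3K27ac regions, 5 overlapped CHD7 (62.5%), near 57.7% of all. Unlike the Frizzled regions, these totals were not limited to regions within 100 kb of a gene.

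The strongest of these CHD7 regions lay 45.8 kb beyond the end of Fzd4 (chr7:89455932-89457220), with folds of 5.60 and 4.44 (5.02 ± 0.82), above those of every CHD7 boundary region of the family. No H3K27ac region called in both libraries overlapped it, although H3K27ac library 1 had a peak of fold 3.15 there. A second Fzd4 region lay 12.8 kb beyond the end (chr7:89422928-89423920; 3.11 and 2.65, mean 2.88 ± 0.33), again without H3K27ac. Fzd3 had its CHD7 in the gene body, 16.2 kb from its upper end (chr14:65244973-65246299), with folds of 4.20 and 4.15 (4.17 ± 0.039). An H3K27ac region of 306 bp lay within it, with 2.62 and 2.99 (2.81 ± 0.26). At Fzd3 the body region thus had the higher CHD7 fold, and the end of the gene the higher H3K27ac fold. The tables used here give no exons, so whether the body region is intronic was not determined.

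Fzd6 had a CHD7 region 3.91 kb beyond its upper end (chr15:39042100-39042769; 4.34 and 3.22, mean 3.78 ± 0.79), which overlapped Gm7194, a gene not classed as protein-coding. Fzd1 had one 91.3 kb beyond its end (chr5:4662065-4662529; 2.40 and 3.07, mean 2.73 ± 0.47). Neither of these 2 regions overlapped H3K27ac. Fzd2 had 3 CHD7 regions. The highest lay 16.3 kb above it (chr11:102624333-102625233; 3.94 and 2.97, mean 3.45 ± 0.69), overlapping the non-coding gene 2810433D01Rik, and the next lay 9.01 kb below it (chr11:102594747-102595422; 3.23 and 2.90, mean 3.06 ± 0.23). Both overlapped H3K27ac, with folds of 3.79 and 2.66 above the gene and of 3.82 and 3.71 below it. Fzd7 had 3 CHD7 regions before its start site, at 32.0, 43.7 and 58.8 kb, with mean folds of 2.72 ± 0.19, 3.34 ± 0.31 and 3.16 ± 0.19. The nearest and the farthest of them overlapped H3K27ac, and an H3K27ac region at 22.7 kb (3.19 and 2.67) overlapped no CHD7 region. At the start of Fzd7, H3K27ac was called in both libraries and CHD7 in library 1 alone. Fzd9, the gene without an H3K27ac boundary region, had H3K27ac at 7.28 kb (3.04 and 3.31) and at 12.9 kb (4.09 and 2.96) before its start site. CHD7 was found there in library 2 alone, with a fold of 3.96 at 13.3 kb. Fzd5, Fzd8 and Fzd10 had 0 regions away from boundaries in both libraries of either antibody.

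**Figure D4:**
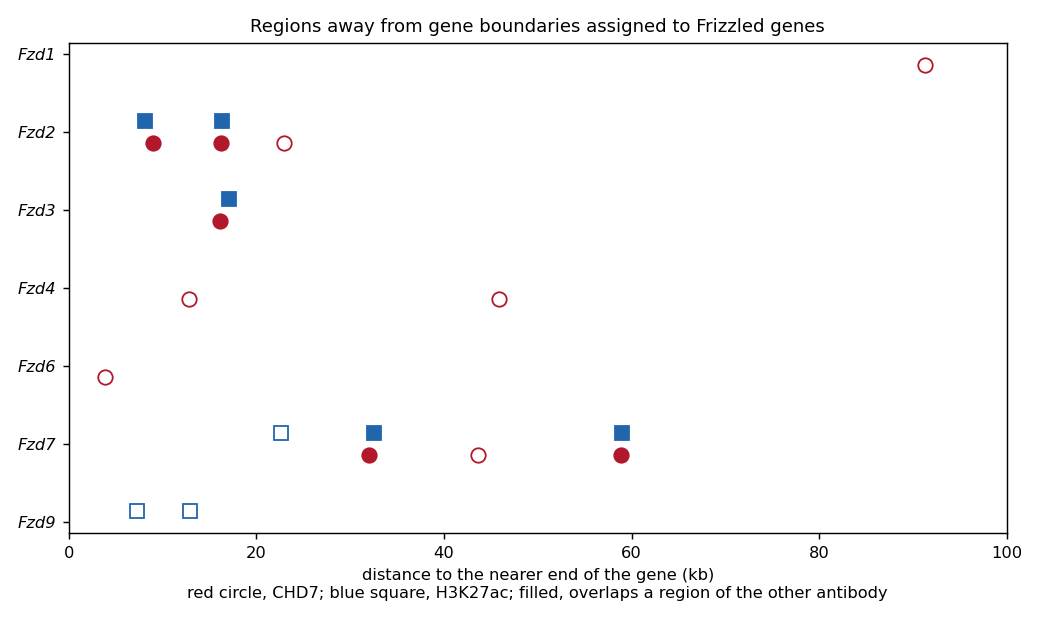
Distance to the nearer gene end (horizontal axis, kb) of the 11 CHD7 regions (red circles) and 8 H3K27ac regions (blue squares) away from boundaries, by Frizzled gene, filled where a region of the other antibody overlaps. Filled symbols stand at Fzd2, Fzd3 and Fzd7, while the CHD7 regions of Fzd1, Fzd4 and Fzd6 and the H3K27ac regions of Fzd9 are open.

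Other genes of WNT signalling were counted the same way. Planar cell polarity core genes had CHD7 at 9 of 10 and H3K27ac at 9 of 10, and coreceptors had each at 6 of 7. Wnt ligand genes, Ndp included, had CHD7 at 3 of 20 and H3K27ac at 3 of 20. Secreted inhibitors had CHD7 at 9 of 15 and H3K27ac at 6 of 15, genes of Frizzled turnover and R-spondins at 6 of 9 and 3 of 9, transducers to beta-catenin at 10 of 18 and 13 of 18, and WNT secretion genes at 1 of 2 each. In these 81 genes together, CHD7 lay at 54.3% and H3K27ac at 50.6%. Frizzled genes had 4 more members with H3K27ac than with CHD7, and transducers to beta-catenin also had more (13 against 10), while R-spondin and turnover genes had 3 fewer. With regions found in either library, each antibody stood at all 10 Frizzled genes. These lists were not tested against each other.

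Apart from Wls, given last, the strongest CHD7 of these lists stood at Rnf43, which encodes a ubiquitin ligase that removes Frizzled receptors from the cell surface, with folds of 6.75 and 5.51. Celsr2, a cadherin of planar cell polarity, had 5.19 and 5.88, and the secreted inhibitor gene Wif1 had 3.84 and 5.10 with no H3K27ac region. Ankrd6 (3.87 and 5.01), Pygo2 (4.29 and 4.28), Lgr5 (4.58 and 3.92, no H3K27ac region), Dkk3 (4.41 and 4.01), Lrp6 (3.72 and 4.10), Wnt5b (3.36 and 4.43), Ctnnb1 (3.71 and 3.83), Ror2 (3.80 and 3.73) and Wnt9a (2.74 and 3.07, no H3K27ac region) were the others named by rule. The region of Wls, a gene of WNT secretion, had folds of 15.8 and 16.3 and overlapped an input peak. Fzd4 was also compared with these genes by the strongest boundary region of each antibody. At Fzd4 these were different regions, both also near Tmem135, and what a small distance reflects was not tested. Over the 4 immunoprecipitated libraries, the folds of Fzd4 were nearest to those of Sfrp1, which encodes a secreted protein with a Frizzled-like domain (3.53, 3.91, 4.07 and 4.04 in CHD7 1 and 2 and H3K27ac 1 and 2). Ankrd6 and Vangl2, of planar cell polarity, followed, with distances on the log2 scale of 0.23, 0.26 and 0.29 among 32 genes with both antibodies at a boundary.

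**Figure D5:**
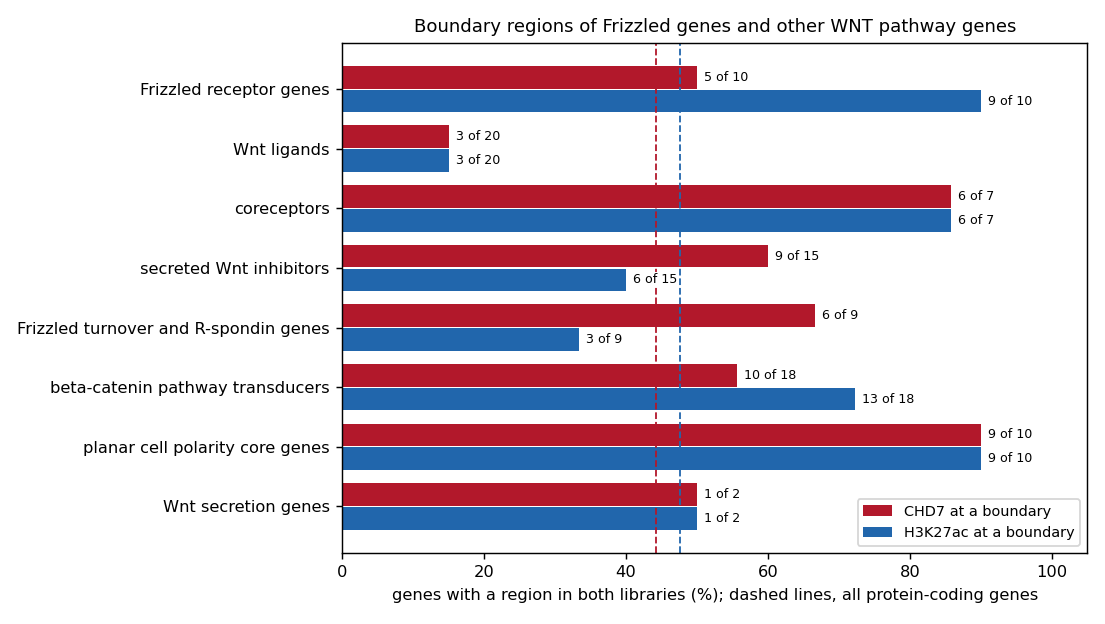
Share of genes (horizontal axis, %) with CHD7 (red) and H3K27ac (blue) at a boundary in both libraries, for Frizzled genes and 7 lists of other WNT pathway genes, with counts at the bars and dashed lines at the shares of all protein-coding genes. Frizzled genes reach 9 of 10 for H3K27ac and 5 of 10 for CHD7, and Wnt ligand genes 3 of 20 for each.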

How the data were processed

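Peak lists of 6 ChIP-seq libraries were used, each called on a single library. Per the submitters' processing notes, the tools were MACS2 2.1.2, Bowtie2 2.3.3.1, bcl2fastq 2.18.0.12 and Picard, with mm10. The deposited lists give each peak's fold enrichment (a ratio), −log10 p and −log10 q, an integer score and the summit offset (another number, not used). The sources do not state whether input was the control. Fold was ranked only within a list or class, and score was not used. No read counts are held, so depth is unknown and no interval was computed.

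With Python 3.11.15 and pandas 2.3.3, summits of 1 interval were joined with their highest fold, and only the 19 autosomes and both sex chromosomes were used. Regions are merged overlapping peaks (at least 1 bp) with a peak in both libraries. Genes came from a RefSeq table of GRCm38.p6 without exons or strand; 124 of 21900 protein-coding genes without placed coordinates were left out. Assignment was tested on simulated data. The members and lists were chosen with earlier results of these data known. All 10 members are named, and of each pathway list the 2 genes of highest mean CHD7 fold at a boundary. Of regions away from boundaries, the 2 of highest mean fold per gene were to be named; the third regions of Fzd7, chosen after their values were seen, are named beyond that rule. Alternatives were boundary distance, either library, q limits, overlap, input peaks, gene set, window and each library alone.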

Additional observations from a re-analysis of the deposited data

How the results depend on the processing

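Counts of members moved most with peak strength. When every peak had to reach a −log10 q of 10, CHD7 lay at a boundary of 1 Frizzled gene (Fzd4, also with H3K27ac, and near Tmem135). H3K27ac lay at 4 (Fzd1, Fzd2, Fzd3 and Fzd4). Away from boundaries 2 CHD7 and 0 H3K27ac regions were left, 0 of the CHD7 regions with H3K27ac. With the 10000 peaks of lowest q these counts were 1, 5, 2, 1 and 0, in the order given, and 1 gene had both. With regions found in either library they were 10 genes with CHD7, 10 with both, 19 CHD7 and 19 H3K27ac regions away from boundaries and 12 CHD7 regions with H3K27ac. With the nearest gene sought among all genes, non-coding ones included, 3 CHD7 and 4 H3K27ac regions and 2 with both were left, and with an overlap of at least 50% of the shorter interval 3 CHD7 regions overlapped H3K27ac. In 1 library alone, CHD7 lay at 7 to 8 genes, both antibodies at 7 to 8, H3K27ac regions away from boundaries numbered 13 to 14, and 8 CHD7 regions in each overlapped H3K27ac. Over all genes, CHD7 lay at a boundary of 10.6% with a −log10 q of 10, 20.2% with the 10000 peaks and 55.1% in either library. It lay at 51.1% in library 1 alone and 49.1% in library 2 alone. For H3K27ac these shares were 28.3%, 31.4%, 53.3%, 51.3% and 49.8%, in that order. For both antibodies, and for regions away from boundaries, such shares were not computed under the alternatives. Of 83 values under alternatives, 56 stayed close to the reported value and 27 did not. Close meant within 1.5 times a reported count. For a fold it meant within the median, over boundary regions, of the SD between the 2 libraries. Some of the 56 could not move. The nearest-gene settings cannot change boundary counts, and the q limits and the input setting left input peaks in place. The tally thus does not measure how stable the results are. Within 500 bp, Fzd5 lost its CHD7 region, and within 2.5 kb Fzd9 gained one. Left out for overlap with input were 0 of the regions of Frizzled genes. The cause of these shifts was not tested. No paired analysis was possible because no result comes from a test between groups: counts and folds are given within each antibody. Depth is unknown, so a region missing from a list was not called, which does not show that it is absent.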

Other observations

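Outside the receptor family, 12 genes whose proteins carry a domain like the cysteine-rich domain of Frizzled were counted, a list chosen after the data had been seen. CHD7 lay at a boundary of 8 and H3K27ac of 7 of the 12, against 44.2% and 47.6% of all protein-coding genes. All 7 with H3K27ac had CHD7, as did 8567 of all 10372 genes with H3K27ac. Smo, the hedgehog transducer that is structurally the nearest relative of Frizzled receptors, had CHD7 folds of 3.39 and 4.72 and H3K27ac folds of 6.42 and 8.16. Col18a1 (CHD7 4.05 and 4.24), Sfrp1 (3.53 and 3.91), Ror1 (3.23 and 3.88), Ror2, Sfrp2 (3.31 and 2.91) and Frzb (2.30 and 2.56) also had both. Sfrp4 had CHD7 (2.67 and 2.26) without H3K27ac, and Sfrp5, Mfrp, Corin and Musk had neither.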
